A study of Mus musculus with 6 samples.

Results

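Pyruvate dehydrogenase turns pyruvate into acetyl-CoA in the mitochondrial matrix and so lets glucose carbon enter the citric acid cycle. Pyruvate dehydrogenase kinases (PDKs) phosphorylate its E1 alpha subunit, encoded by *Pdha1*, and switch the complex off, while pyruvate dehydrogenase phosphatases, such as the one whose catalytic subunit is encoded by *Pdp1*, switch it on again. In fasting, skeletal muscle raises *Pdk4* to spare glucose, and the peroxisome proliferator-activated receptors (PPARs), which are nuclear receptors for fatty acids, raise *Pdk4* together with *Angptl4*, whose secreted product inhibits lipoprotein lipase, and with many genes of fatty acid use. The genes described here are the 4 kinase genes *Pdk1* to *Pdk4*, *Pdp1*, *Pdha1*, *Angptl4* and the receptor genes *Ppara* and *Ppard*. They were picked by name, all 9 were found among the 23997 gene symbols of each library, and all 9 were among the 13359 genes tested.

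The data were RNAseq levels from the gastrocnemius, the large calf muscle, of 21-day-old mice, with 1 library per mouse. The *HrasG12V* group (mice 2276, 2278 and 2279) carried Caggs-Cre+/HrasG12V/+, so Cre recombinase, which the CAG promoter drives in most tissues, had switched 1 *Hras* allele to the activating G12V form under its own promoter. The WT group (littermates 2277, 2280 and 2281) carried Caggs-Cre-/HrasflG12V/+, that is, the same floxed allele in its unrecombined, wild-type state and no Cre, and the presence of Cre cannot be told apart from the mutation. All mice were untreated and came from a mixed background, and whether they were fed or at what hour the muscle was taken is not given in the sources used here. Levels are FPKM, in which sequenced fragments are scaled to the length of the transcript and to the size of the library, so that genes can be set side by side. In whole muscle, less RNA per fiber and fewer fibers of a kind cannot be told apart.

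Some libraries stood apart from the rest. The deposited FPKM summed to 814013 in *HrasG12V* mouse 2276 and to 413020 to 547122 in the other 5 mice, while the median over all genes tested was 6.39 to 6.64 FPKM in each. The level of *Hras*, summed over both alleles, was 16.0 to 58.8 FPKM in *HrasG12V* and 36.0 to 51.8 FPKM in WT mice. Among 10 markers of muscle fibers, *Acta1* and *Myh4* were listed at 0 in all 6 libraries and *Ckm*, *Myh1* and *Tnnt3* in some, while *Tnni2*, *Pvalb*, *Des*, *Mb* and *Myh2* were found in each. A value listed at 0 is therefore not read as absence of a transcript. The 6 slow fiber markers summed to 16.5 FPKM in WT mouse 2281 and to 923 to 3150 FPKM in the other 5 mice. The 7 B and T cell markers summed to 85.5 and 75.6 FPKM in mice 2278 and 2279 and to 1.15 to 2.07 FPKM in the other 4.

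*Pdk4* was the most abundant of the 4 kinase genes in WT muscle and was lower in every *HrasG12V* mouse. It was at 1241, 857 and 681 FPKM in the WT mice 2277, 2280 and 2281 and at 239.9, 101 and 405 FPKM in *HrasG12V* mice 2276, 2278 and 2279. The genotypes did not overlap, and the highest *HrasG12V* mouse, 2279, was well below the lowest WT mouse, 2281. The means were 926 ± 286 FPKM (SD, n = 3) in WT and 249 ± 152 FPKM (SD, n = 3) in *HrasG12V* muscle. On the log2(FPKM + 0.1) scale this was a fold change of -2.07 (standard error 0.55), a level 4.19-fold lower. *Pdk4* ranked 38, 68 and 91 by level among all gene symbols in the WT mice and 428, 551 and 128 in *HrasG12V* mice 2276, 2278 and 2279. It is for this difference that *Pdk4* and the genes around it were chosen, so the difference is a description and no test is given for it or for the same contrast in the other 8 genes. Leaving out each mouse in turn kept the log2 fold change of *Pdk4* between -2.53, without mouse 2279, and -1.53, without mouse 2278.

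**Figure D1:**
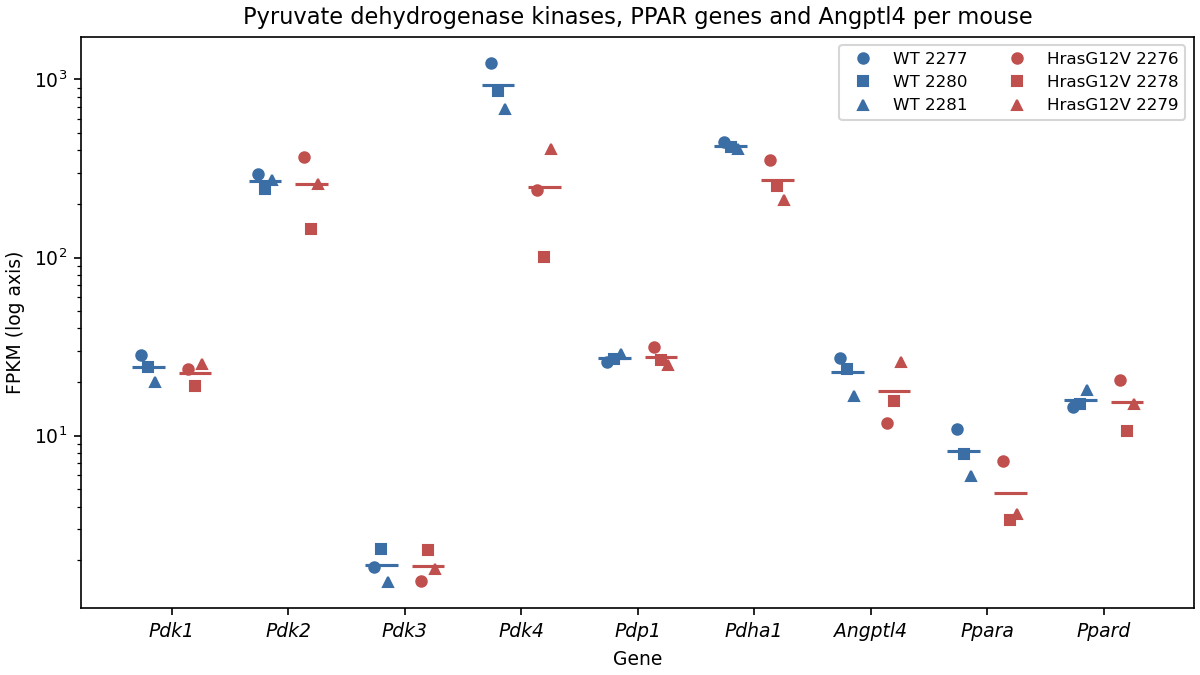
FPKM of the 9 genes in each mouse (log axis), with WT mice in blue and *HrasG12V* mice in red, 1 symbol per mouse and a bar at the mean of each genotype. *Pdk4* and *Pdha1* are the genes whose genotypes do not overlap, and *Pdk1*, *Pdk3* and *Pdp1* have means close to each other.

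The other 3 kinase genes showed no such difference. *Pdk2*, the other kinase that muscle makes in quantity, was at 293, 243 and 271 FPKM in the WT mice 2277, 2280 and 2281 and at 368, 145 and 260 FPKM in *HrasG12V* mice 2276, 2278 and 2279, with a log2 fold change of -0.16 (standard error 0.38). The *HrasG12V* mice held both the highest and the lowest *Pdk2* value of the 6. *Pdk1*, a kinase gene known to respond to low oxygen, was at 20.1 to 28.4 FPKM in WT and 19.0 to 25.2 FPKM in *HrasG12V* mice (log2 fold change -0.10, standard error 0.20). *Pdk3* was at 1.51 to 2.30 FPKM in WT and 1.52 to 2.28 FPKM in *HrasG12V* mice (log2 fold change -0.01, standard error 0.24). For these 3 genes the genotypes overlapped in full or in large part.

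The make-up of the kinase transcripts was thus not the same in the genotypes. *Pdk4* made up 79.3%, 76.1% and 70.0% of the summed FPKM of the 4 kinase genes in WT mice 2277, 2280 and 2281. Its part was 37.9%, 37.8% and 58.5% in *HrasG12V* mice 2276, 2278 and 2279, and that of *Pdk2* was 18.7% to 27.8% in WT and 37.6% to 58.1% in *HrasG12V* mice. The ratio of *Pdk4* to *Pdk2* within a library, which no single scaling factor for a library can alter, was 4.24, 3.53 and 2.51 in the WT mice and 0.652, 0.696 and 1.56 in mice 2276, 2278 and 2279. *Pdk2* was thus above *Pdk4* in mice 2276 and 2278 and below it in the other 4. The summed level of the 4 genes was 973 to 1563 FPKM in WT and 267 to 692 FPKM in *HrasG12V* mice.

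**Figure D2:**
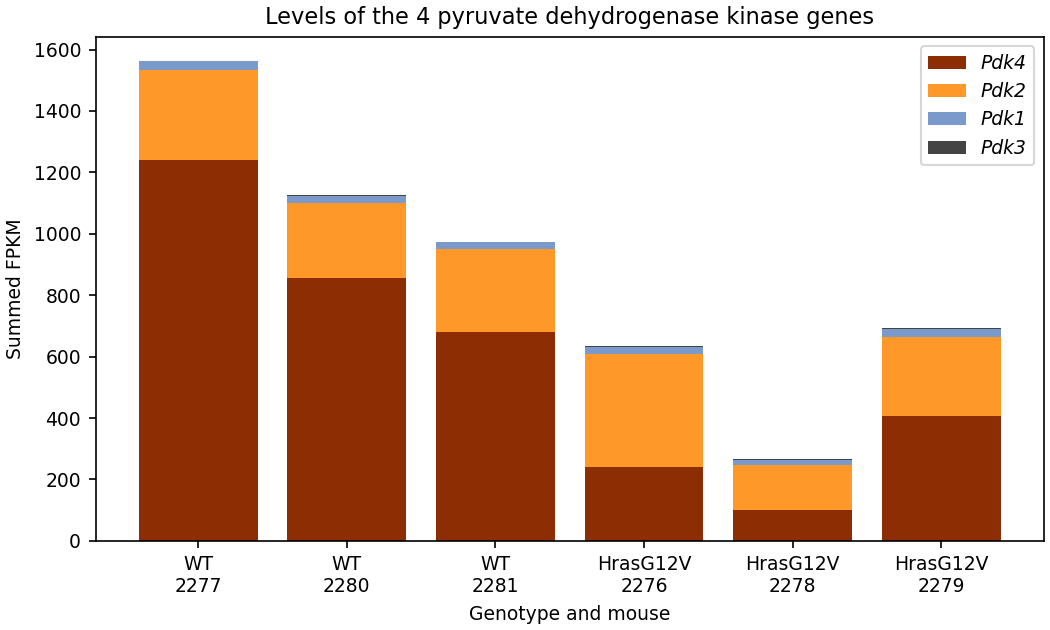
Stacked FPKM of *Pdk4*, *Pdk2*, *Pdk1* and *Pdk3* in each mouse, from 0. The *Pdk4* segment is the largest in the 3 WT mice and in *HrasG12V* mouse 2279, and the *Pdk2* segment is the largest in mice 2276 and 2278.

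The substrate of the kinases was lower in each *HrasG12V* mouse, and the phosphatase gene was close in both genotypes. *Pdha1* was at 444, 416 and 407 FPKM in the WT mice 2277, 2280 and 2281 and at 353, 253 and 211 FPKM in *HrasG12V* mice 2276, 2278 and 2279. The genotypes did not overlap, and the log2 fold change was -0.66 (standard error 0.28). *Pdp1* was at 26.0 to 28.9 FPKM in WT and 25.1 to 31.6 FPKM in *HrasG12V* mice, with a log2 fold change of 0.02 (standard error 0.17). In the GENCODE vM21 annotation of GRCm38 *Pdha1* lies on the minus strand of chromosome X from 160122209 to 160138413 and overlaps *Map3k15* on the other strand, and *Pdk2* overlaps the antisense gene *Gm11513*. Whether the counting used the strand is not given in the sources used here, so reads of such partners cannot be told apart.

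*Angptl4*, a fasting-induced PPAR target like *Pdk4*, overlapped between the genotypes. It was at 27.4, 23.8 and 16.8 FPKM in the WT mice 2277, 2280 and 2281 and at 11.8, 15.7 and 25.8 FPKM in *HrasG12V* mice 2276, 2278 and 2279. Mice 2276 and 2278 were below every WT mouse and mouse 2279 was above 2 of them, and the log2 fold change was -0.39 (standard error 0.33). Without mouse 2279 it was -0.70, and without mouse 2276 it was -0.14. The mouse with the least *Pdk4*, 2278, was not the one with the least *Angptl4*.

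Of the receptor genes, *Ppara*, the receptor that leads the fasting response in liver and is also present in muscle, was at 10.9, 7.91 and 5.97 FPKM in the WT mice 2277, 2280 and 2281 and at 7.22, 3.35 and 3.64 FPKM in *HrasG12V* mice 2276, 2278 and 2279. Mouse 2276 lay within the WT range and the other 2 below it, and the log2 fold change was -0.83 (standard error 0.35). *Ppard*, the receptor form that muscle uses most, was at 14.5 to 18.1 FPKM in WT and 10.7 to 20.5 FPKM in *HrasG12V* mice (log2 fold change -0.09, standard error 0.26). Among the 9 genes, values did not overlap in 2 that were lower and 0 that were higher, beside 10.4% and 8.11% of all genes tested. Because the 9 genes were picked with these results known, nothing is read from these counts.

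By level, the WT order was *Pdk4*, *Pdha1*, *Pdk2*, *Pdp1*, *Pdk1*, *Angptl4*, *Ppard*, *Ppara* and *Pdk3*. The neighbours *Pdp1* and *Pdk1*, *Pdk1* and *Angptl4*, and *Angptl4* and *Ppard* overlapped between mice, and the rest of the neighbours did not. In *HrasG12V* muscle *Pdha1* (272 ± 72.6 FPKM, SD, n = 3), *Pdk2* (258 ± 112) and *Pdk4* (249 ± 152) overlapped.

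Whether the lower *Pdk4* went with other fasting-induced PPAR targets was examined in 48 further genes, of which 41 passed the filter on low values. With 3 mice per genotype 0 of the 41 had a limma adjusted p below 0.05, beside 0.0599% of all genes tested, and 7 had an unadjusted limma p below 0.05 with a lower level in *HrasG12V* muscle, 17.1% of them beside 4.99% of all genes tested. The same limit was passed with a higher level by 1 gene, beside 5.18% of all genes tested. The median log2 fold change was -0.40 over the 41 genes and -0.03 over all genes tested, and 32 of the 41 estimates were below 0 beside 53.4% of all genes tested. The 48 genes and the other lists below were written by hand with earlier results of these data known. Counts and p-values for them are therefore a description and not an independent test. *Ucp3*, an uncoupling protein of muscle mitochondria, had the lowest estimate of the 41.

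**Figure D3:**
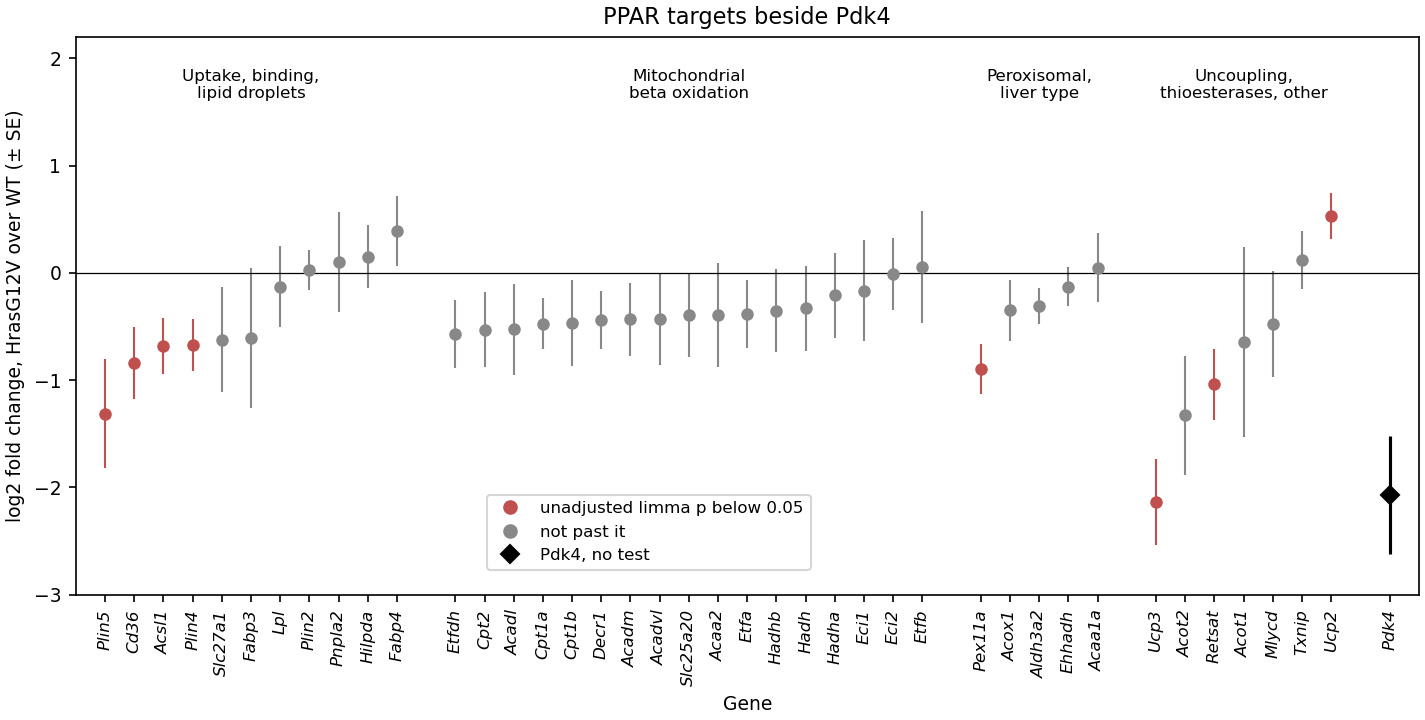
Log2 fold change with its standard error for 40 of the 41 PPAR targets tested, in 4 groups, with *Pdk4* at the right (black diamond, shown without a test). Red marks an unadjusted limma p below 0.05. *Ucp3* lies at the depth of *Pdk4*, and the beta oxidation enzymes lie in a narrow band a little below 0.

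*Ucp3* was at 120, 80.6 and 128 FPKM in the WT mice 2277, 2280 and 2281 and at 37.1, 13.9 and 28.1 FPKM in *HrasG12V* mice 2276, 2278 and 2279. Its genotypes did not overlap, as for *Pdk4*. The log2 fold change was -2.14 (standard error 0.40, limma unadjusted p = 0.00128, adjusted p = 0.288), and it lay between -2.44 and -1.73 with each mouse left out, with an unadjusted p below 0.05 in all 6 sets of 5 mice. *Ucp2*, its neighbour on the chromosome and a form found in many cell types, was the gene with a higher level, at 11.6 to 13.3 FPKM in WT and 13.5, 20.2 and 21.6 FPKM in mice 2276, 2278 and 2279 (log2 fold change 0.53, standard error 0.22, limma unadjusted p = 0.0464, adjusted p = 0.488). Its unadjusted limma p stayed below 0.05 only without mouse 2276 and was up to 0.136 in the other 5 sets of 5 mice. In that same group, *Retsat*, a retinol saturase, was at 33.2 to 52.7 FPKM in WT and 13.0 to 28.0 FPKM in *HrasG12V* mice (log2 fold change -1.04, standard error 0.33, limma unadjusted p = 0.0180, adjusted p = 0.435).

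The windows before the gene starts of *Pdk4*, *Ucp3* and *Pdk2* are shown because *Pdk4* and *Ucp3* had the lowest estimates and *Pdk2* is the abundant kinase gene without such a difference. They are RefSeq sequence of GRCm38.p6, written 5′ to 3′ on the strand of the gene and without bases inside the GENCODE gene, at chr6:5496310-5496528 (minus strand), chr7:100472741-100472989 (plus strand) and chr11:95041372-95041621 (minus strand, the first of the *Pdk2* starts). Of the 9 genes, 7 had such a window and *Pdp1* and *Angptl4* were not matched. Capitals mark matches to AGGTCA, the hexamer that PPARs and other nuclear receptors bind.
Pdk4: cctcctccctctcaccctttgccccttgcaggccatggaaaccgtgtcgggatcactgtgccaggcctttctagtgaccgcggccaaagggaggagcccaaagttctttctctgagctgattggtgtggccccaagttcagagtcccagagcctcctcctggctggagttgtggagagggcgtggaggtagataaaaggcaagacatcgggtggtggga
Ucp3: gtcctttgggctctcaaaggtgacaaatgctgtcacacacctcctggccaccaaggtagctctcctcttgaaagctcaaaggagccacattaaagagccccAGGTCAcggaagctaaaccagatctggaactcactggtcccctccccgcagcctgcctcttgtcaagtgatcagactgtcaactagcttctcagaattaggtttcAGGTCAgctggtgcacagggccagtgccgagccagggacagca
Pdk2: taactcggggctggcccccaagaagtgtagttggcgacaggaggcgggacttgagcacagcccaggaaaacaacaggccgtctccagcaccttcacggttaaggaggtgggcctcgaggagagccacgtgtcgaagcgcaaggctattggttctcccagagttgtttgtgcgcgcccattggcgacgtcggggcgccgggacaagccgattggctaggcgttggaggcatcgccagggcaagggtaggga

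Both strands of the 250 bases before each start were searched for AGGTCA, for the PPAR element made of 2 such hexamers with 1 base of any kind between them, which contains the first motif, for the FoxO element GTAAACA, for the glucocorticoid receptor hexamer AGAACA and for TATAAA. *Ucp3* held AGGTCA with its first base 149 and 44 bases before the start, and these letters were found in 14% of the 32851 windows of all genes. The window of *Pdk4* and both windows of *Pdk2* held none of the 5 motifs, of which the PPAR element was in 0.0335%, GTAAACA in 3.17%, AGAACA in 16.1% and TATAAA in 12.4% of all windows. A match is a run of letters, and no match says only that these letters are not in this window.

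Among 11 genes of fatty acid uptake, binding and lipid droplets, 4 were lower at an unadjusted limma p below 0.05, beside 4.99% of all genes tested, and 7 did not pass it. They were *Plin5* and *Plin4*, which coat lipid droplets, *Cd36*, a fatty acid transporter, and *Acsl1*, which activates fatty acids with coenzyme A. *Plin5* was at 49.0, 32.5 and 26.6 FPKM in the WT mice 2277, 2280 and 2281 and at 26.1, 6.71 and 15.6 FPKM in *HrasG12V* mice 2276, 2278 and 2279 (log2 fold change -1.31, standard error 0.50, limma unadjusted p = 0.0374, adjusted p = 0.481). *Cd36* was at 509, 411 and 286 FPKM in the WT mice and at 178, 201 and 291 FPKM in the *HrasG12V* mice, so that mouse 2279 was just above WT mouse 2281 (log2 fold change -0.84, standard error 0.33). The log2 fold changes of *Acsl1* and *Plin4*, whose genotypes did not overlap, were -0.68 (standard error 0.26) and -0.67 (standard error 0.24). *Lpl*, the lipase that *Angptl4* inhibits, was at 124 to 310 FPKM in WT and 160 to 220 FPKM in *HrasG12V* mice (log2 fold change -0.13, standard error 0.38), and *Fabp3*, the muscle fatty acid binding protein, at 1166 to 2167 and 435 to 2332 FPKM (-0.61, standard error 0.65).

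None of the 17 genes of mitochondrial fatty acid import and beta oxidation passed an unadjusted limma p of 0.05, beside 10.2% of all genes tested. Of the 17 estimates 16 were below 0, beside 53.4% of all genes tested, with a median log2 fold change of -0.40. *Etfdh*, which passes electrons from beta oxidation to the respiratory chain, had the lowest estimate, -0.57 (standard error 0.32), and *Etfb* the highest, 0.05 (standard error 0.52). Set against the mean of the WT mice, the median log2 difference of these 17 genes came to 0.18, -1.03 and -0.40 in mice 2276, 2278 and 2279, while *Pdk4* was at -1.90, -3.15 and -1.15 in the same mice. With all libraries brought to the same summed FPKM, the median of the 17 genes was instead -0.46, -0.75 and -0.06, and *Pdk4* was at -2.55, -2.88 and -0.81. The median of all genes tested was 0.04, -0.08 and -0.04 in these mice as deposited and -0.57, 0.19 and 0.28 with the same summed FPKM. Under both scalings *Pdk4* was lower than the median of the 17 genes in each of the 3 mice. Whether the beta oxidation genes of mouse 2276 were above or below WT turned with the scaling, as did the median of all genes tested in that mouse.

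Of 13 peroxisomal, microsomal and liver type targets, 7 did not pass the filter on low values, as *Cyp4a14*, which was listed at 0 in all 6 mice, and *Fgf21*, which was at 0.711 FPKM in WT mouse 2277 and at or below 0.0179 FPKM in the other 5. *Pex11a*, a peroxisome division factor, was at 10.3 to 12.7 FPKM in WT and 7.24, 4.24 and 6.77 FPKM in mice 2276, 2278 and 2279 (log2 fold change -0.90, standard error 0.24, limma unadjusted p = 0.00738, adjusted p = 0.382). The thioesterase genes *Acot2* and *Acot1*, near-identical copies whose reads may be shared, had log2 fold changes of -1.33 (standard error 0.56) and -0.64 (standard error 0.89). *Acot2* was at 25.8, 10.5 and 7.75 FPKM in the WT mice and 5.41, 2.72 and 8.58 FPKM in the *HrasG12V* mice, with an unadjusted limma p of 0.0509.

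How far single mice carried these calls differed from gene to gene. *Ucp3* and *Pex11a* had an unadjusted p below 0.05 in all 6 sets of 5 mice. *Retsat* lost it without WT mouse 2277 (limma unadjusted p = 0.0649), and *Acsl1* lost it without WT mouse 2277 or 2280 or *HrasG12V* mouse 2278 (limma unadjusted p up to 0.158). *Plin5*, *Cd36* and *Plin4* kept it in 2 of the 6 sets and lost it without WT mouse 2277 or 2280 or *HrasG12V* mouse 2278, and also without mouse 2279 for *Plin5*, 2276 for *Cd36* and 2281 for *Plin4* (limma unadjusted p up to 0.157). The number of lower targets was 2, 3 and 7 without WT mouse 2277, 2280 or 2281 and 17, 3 and 8 without *HrasG12V* mouse 2276, 2278 or 2279. Without mouse 2276 the genes past an unadjusted p and a 1.5-fold change also rose in number over all genes tested, as given below. The count of 17 is therefore not read as particular to these targets. Endothelial cells and adipocytes also make *Cd36*, *Lpl*, *Fabp4* and *Angptl4*. The 6 endothelial markers summed to 179 to 216 FPKM in WT and 155 to 167 FPKM in *HrasG12V* mice, with *Cdh5* and *Tie1* of the 6 lower at an unadjusted limma p below 0.05, beside 4.99% of all genes tested. Neither passed it with the same summed FPKM in each library (limma unadjusted p of 0.0901 and 0.0697). The 8 adipocyte markers summed to 13.0 to 64.7 FPKM in WT and 67.3 to 306 FPKM in *HrasG12V* mice, with 4 of the 8 higher at that limit, beside 5.18% of all genes tested. The part of these cells in the results was not tested.

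Among the partners and coactivators of the PPARs, 1 of 13 passed an unadjusted limma p of 0.05, beside 10.2% of all genes tested. It was *Ppargc1a*, the coactivator that drives mitochondrial genes and *Pdk4*, at 8.96 to 10.1 FPKM in WT and 5.22 to 6.05 FPKM in *HrasG12V* mice, with little spread within either genotype (log2 fold change -0.74, standard error 0.14, limma unadjusted p = 0.00127, adjusted p = 0.288). In the 6 sets of 5 mice its unadjusted limma p was at most 0.00936, and with the same summed FPKM in each library it was 0.0488. The study had reported a lower *Ppargc1a* level from these same libraries, so these p-values are no separate evidence. The retinoid X receptor gene *Rxrg*, a dimer partner, had the lowest estimate, -0.79 (standard error 0.47), and *Pparg*, the adipocyte receptor, the highest, 0.31 (standard error 0.25).

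Around *Pdha1* and *Pdp1*, 2 of 8 further genes of the pyruvate dehydrogenase complex, its phosphatases and pyruvate import were lower at an unadjusted limma p below 0.05, beside 4.99% of all genes tested. All 8 estimates were below 0, beside 53.4% of all genes tested, with a median log2 fold change of -0.40. *Pdpr*, the regulatory subunit of the phosphatase, was at 48.2, 40.6 and 48.6 FPKM in the WT mice 2277, 2280 and 2281 and at 11.2, 24.6 and 31.8 FPKM in *HrasG12V* mice 2276, 2278 and 2279 (log2 fold change -1.14, standard error 0.39, limma unadjusted p = 0.0226, adjusted p = 0.449). *Dlat*, the E2 core of the complex, was at 96.8 to 109 FPKM in WT and 83.7, 61.2 and 47.3 FPKM in mice 2276, 2278 and 2279 (log2 fold change -0.71, standard error 0.26, limma unadjusted p = 0.0293, adjusted p = 0.469), the order of mice that *Pdha1* had. The *Pdpr* call was lost without WT mouse 2277 or 2281, where the unadjusted limma p was at most 0.0630, and that of *Dlat* in each set of 5 mice except the one without mouse 2276, with an unadjusted limma p up to 0.0972. *Pdhb*, which pairs with *Pdha1* in E1, was at 266 to 290 FPKM in WT and at 417, 186 and 148 FPKM in mice 2276, 2278 and 2279.

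Levels also varied between mice of 1 genotype, and the genes that shared the order of *Pdk4* were counted. These counts were made after the values had been seen and are given without a test, and genes of 1 library share its RNA and its scaling. Among the WT mice *Pdk4* was highest in 2277 and lowest in 2281, an order shared by 15.6% of all genes tested. It was shared by 16 of the 17 beta oxidation genes and 9 of the 11 uptake and lipid droplet genes, and by 1 of the 8 genes around the pyruvate dehydrogenase complex. With the same summed FPKM in each library, an alternative chosen after the data were seen, these counts were 16, 8 and 7, beside 18.3% of all genes tested, so that the last one turned with the scaling. The order was shared by 2 of 6 peroxisomal, microsomal and liver type targets and 3 of 7 other fasting targets, and by 4 and 4 with the same summed FPKM. Of 17 genes of a list of the glucocorticoid receptor, the FoxO factors and their fasting targets in muscle, 2 shared it under both scalings. In all, 30 of the 41 PPAR targets shared it, and 32 with the same summed FPKM. *Ucp3* had another order, highest in mouse 2281 and lowest in 2280. The beta oxidation genes were higher in mouse 2277 than in 2281 by a median of 0.51 on the log2 scale, *Pdk4* by 0.87, and all genes tested by -0.03. WT mouse 2281 is the one whose slow fiber markers summed to 16.5 FPKM, and the part of fiber type in that order was not tested.

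Among the *HrasG12V* mice the order of *Pdk4* was 2279, 2276 and 2278, shared by 8.27% of all genes tested and by 0 of the 17 beta oxidation genes. It was shared by 4 of the 11 uptake and lipid droplet genes, by 3 of the 7 other fasting targets and by 8 of the 41 PPAR targets in all. It was also shared by 13 of the 17 genes of the glucocorticoid receptor and FoxO list. These counts rest on the scaling of mouse 2276. With the same summed FPKM in each library the order was shared by 11 of the 17 beta oxidation genes, 18 of the 41 PPAR targets and 5 of the 17 glucocorticoid and FoxO genes, beside 5.91% of all genes tested, and no difference between the lists is read from them.

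The comparison of mice 2279 and 2278, whose sums were close, did not turn with the scaling. Of the beta oxidation genes 16 of 17 were higher in mouse 2279, by a median of 0.58 on the log2 scale, and 17 of 17 with the same summed FPKM. Of all 13359 genes tested, 6842 were higher in mouse 2279 as deposited and 7608 with the same summed FPKM. All 17 genes of the glucocorticoid and FoxO list were higher under both scalings, by a median of 1.11 on the log2 scale as deposited, beside 2.00 for *Pdk4* and 0.01 for all genes tested. *Fbxo32*, the ubiquitin ligase atrogin-1, was at 26.7, 10.9 and 102 FPKM in mice 2276, 2278 and 2279, with a WT range of 22.8 to 43.8 FPKM. *Klf15*, a glucocorticoid-induced factor, was at 18.6, 8.70 and 29.2 FPKM, and *Ddit4*, an inhibitor of mTORC1 signaling, at 30.2, 22.3 and 99.8 FPKM in the same 3 mice.

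Between the genotypes 0 of these 17 genes had an unadjusted limma p below 0.05, beside 10.2% of all genes tested. Their log2 fold changes ran from -0.82 (*Mt2*, standard error 0.62) to 0.51 (*Cebpd*, standard error 0.57), with a median of -0.26.

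**Figure D4:**
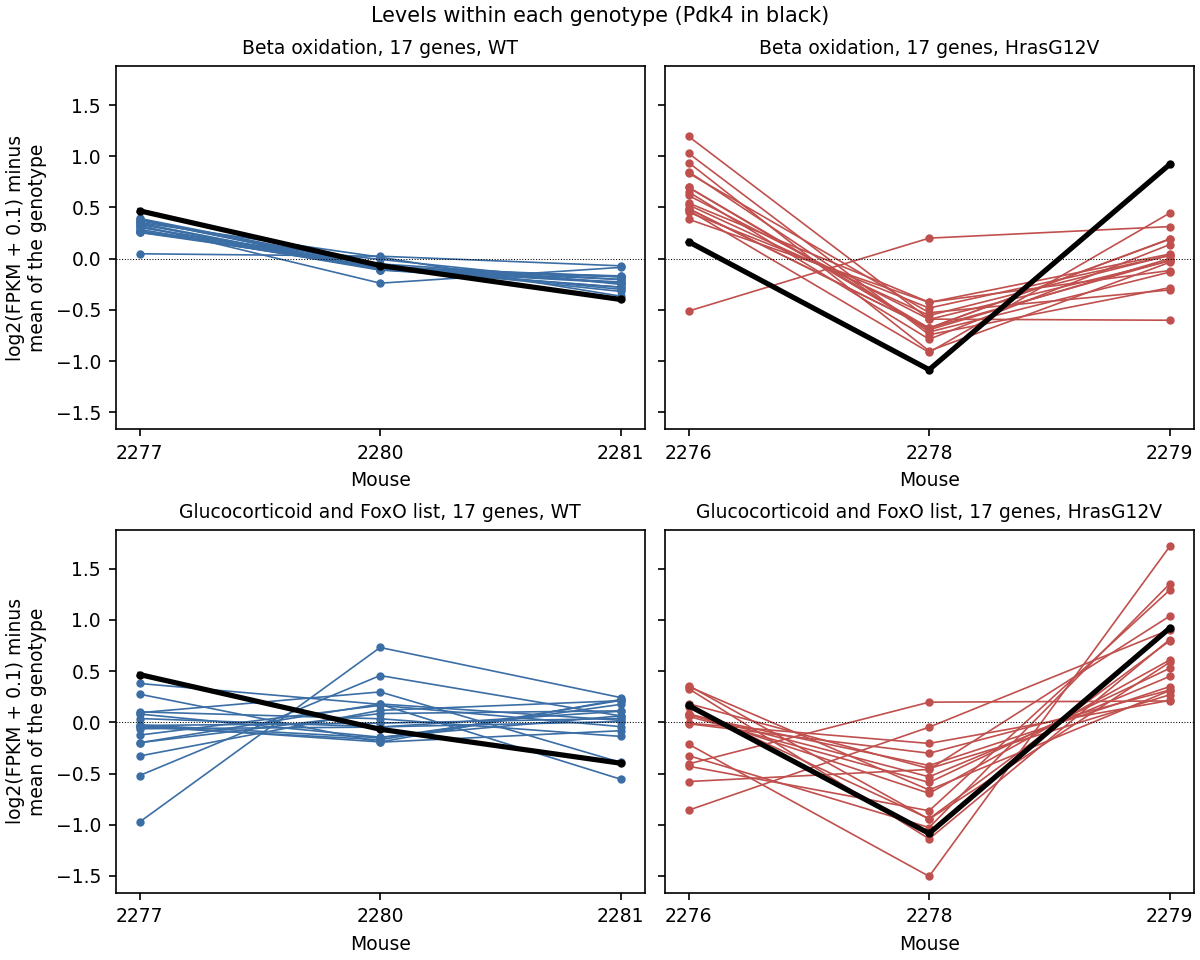
Log2(FPKM + 0.1) of each gene minus its mean over the 3 mice of the genotype, for the 17 beta oxidation genes (top) and the 17 genes of the glucocorticoid and FoxO list (bottom), with WT at the left and *HrasG12V* at the right. Each thin line is a gene and the black line is *Pdk4*, which is highest in mouse 2277 and lowest in 2281 among WT mice, as are most beta oxidation genes. In *HrasG12V* mice *Pdk4* and most genes of both lists are higher in mouse 2279 than in 2278, and the place of mouse 2276 depends on the scaling.

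Over all 6 mice, the genes with the levels most like *Pdk4* among 7889 other genes with a mean of at least 5 FPKM were *Acox3*, *Ephb4*, *Sox17*, *Kif13a* and *Kank3*, with Pearson's r on the log2 scale of 0.993, 0.987, 0.984, 0.981 and 0.980. The genotypes did not overlap in *Pdk4*, so r holds the difference between them as well as that between mice, and it has no test. Their differences were smaller than that of *Pdk4*, with log2 fold changes between -0.55 (*Sox17*) and -0.17 (*Acox3*).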

How the data were processed

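Stranded libraries were prepared from muscle mRNA, and single-end reads were obtained. The authors mapped the reads with TopHat and deposited FPKM from Cufflinks and Cuffnorm, which scales the libraries to each other. The submitters' processing notes name GRCm38 (mm10), while versions of the tools and of the annotation were not given in the sources used here. Ratios of low values between libraries held at most 4.08% of genes in an interval 1% wide, so whole reads were not recovered and the number of reads behind a value cannot be computed from the files, although the study's methods state a sequencing depth per sample.

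Genes with a mean of at least 0.5 FPKM over the 6 libraries were kept (13359), 0.1 was added, and log2 values of 3 *HrasG12V* and 3 WT mice entered a linear model in limma (version 3.58.1, R version 4.3.3) with a trended empirical Bayes variance and no covariate. P-values were adjusted over all genes tested by the Benjamini-Hochberg method. Fold changes on this scale understate the change of low genes. The fit was first tested on simulated data.

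The genes and lists were chosen with earlier results of these data known. The 48 PPAR targets and the other lists were written by hand. Genes named are the 9 members, list genes past the unadjusted p, the highest and lowest of a list where fewer than 3 passed, and the 5 genes most like *Pdk4*. *Hras*, the muscle fiber markers, *Fabp4* and overlapping genes were named to describe the libraries, cell types or annotation. *Lpl*, *Fabp3*, *Acot1*, *Acot2*, *Cyp4a14*, *Fgf21*, *Fbxo32*, *Klf15*, *Ddit4* and *Fasn* were chosen after their values were seen. *Adgre1* was read under its older symbol *Emr1*. For 1 PPAR target values are not reported here, although it is in the counts of its list. Separate mice are the replicates. Alternatives were other pseudocounts, filters and scalings, array weights, no moderation and leaving out each mouse. Promoter sequences came from RefSeq on GRCm38.p6. Protein sequences were not used here.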

Additional observations from a re-analysis of the deposited data

How the results depend on the processing

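With 3 mice per genotype, 952 genes passed an unadjusted limma p of 0.05 with a 1.5-fold change and 8 passed the adjusted p. With array weights these were 1869 and 572, without moderation 596 and 1, after scaling all libraries to 1 total the first was 543, and with a pseudocount of 1 the second was 5. Leaving out each mouse moved the first between 549 and 2178 and the second between 6 and 1374, both highest without *HrasG12V* mouse 2276. The 7 PPAR targets that were lower became 19 with array weights, 4 without moderation and 4 with the same total, and 2 to 17 with a mouse left out. Over all genes tested the numbers also rose with array weights and without mouse 2276. The rise is therefore not read as particular to the PPAR targets. The 1 that was higher became 2 with array weights, 0 without moderation, with the same total or with quantile normalization, and 0 to 2 with a mouse left out. The median log2 fold change of the PPAR targets was -0.70 to -0.38 under the other settings and -0.65 to -0.09 with a mouse left out, always below 0. That of *Pdk4* was -2.35 to -1.99 and -2.53 to -1.53. The unadjusted p was no longer passed by *Acsl1*, *Cd36*, *Plin4*, *Ucp2*, *Pdpr*, *Cdh5*, *Tie1* and *Cidea* with 1 total, by *Acsl1*, *Cd36*, *Ucp2* and *Pdpr* with quantile normalization, and by *Retsat*, *Plin5*, *Cd36*, *Ucp2*, *Pdpr*, *Cidea*, *Cfd* and *Retn* without moderation. Some estimates changed sign. With array weights *Pdk3* was at 0.0743, *Pdp1* at -0.0392, *Egfl7* at -0.21, *Emr1* at 0.0682 and *Etfb* at -0.49. With a mouse left out *Pdk2* ran from -0.46 to 0.21, *Pdk1* from -0.23 to 0.02, *Pdk3* from -0.16 to 0.14, *Pdp1* from -0.08 to 0.09, *Ppard* from -0.32 to 0.15, *Egfl7* from -0.24 to 0.27, *Emr1* from -0.65 to 0.0626, *Etfb* from -0.54 to 0.36, *Cebpd* from -0.16 to 1.03 and *Pdhb* from -0.74 to 0.006. The cause was not tested. No analysis paired by litter was possible because the sources used here do not say which mice shared a litter.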

Other observations

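Genes that feeding and insulin raise in metabolic tissues had a median log2 fold change of 0.75, beside -0.03 over all genes tested. Their estimates went both ways, 7 of them above 0 and 4 below, beside 53.4% of all genes tested below 0. Set against the mean of the WT mice, the median log2 difference came to 0.35, 1.94 and 0.30 in mice 2276, 2278 and 2279, so mouse 2278 was well above the other 2. Of the 11 tested, *Srebf1*, the factor that drives lipid synthesis genes, was higher at an unadjusted limma p below 0.05 and *Me1*, malic enzyme, was lower, beside 5.18% and 4.99% of all genes tested. *Srebf1* was at 8.23 to 9.84 FPKM in WT and 14.9, 17.5 and 20.0 FPKM in mice 2276, 2278 and 2279 (log2 fold change 0.94, standard error 0.17, limma unadjusted p = 0.00110, adjusted p = 0.288). The call of *Me1* (log2 fold change -0.60, standard error 0.19) was lost without WT mouse 2281, where its unadjusted limma p was 0.0742. *Fasn*, fatty acid synthase, was at 2.85 to 4.22 FPKM in WT and 6.32, 53.2 and 6.04 FPKM in these mice, with its highest value in the mouse with the least *Pdk4*. Adipocytes also make both, and the 8 adipocyte markers summed to 67.3, 306 and 209 FPKM in the same mice.

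Of 14 clock genes, *Arntl* and *Npas2* were lower and *Dbp*, a clock output gene, was higher at an unadjusted limma p below 0.05, beside 4.99% and 5.18% of all genes tested. Of the 14 estimates 9 were below 0, beside 53.4% of all genes tested, and 5 were above, with a median log2 fold change of -0.06. In the WT mice 2277, 2280 and 2281 *Dbp* was at 6.50, 1.94 and 2.23 FPKM, and it was at 11.5, 9.42 and 9.32 FPKM in mice 2276, 2278 and 2279 (log2 fold change 1.68, standard error 0.44, limma unadjusted p = 0.00734, adjusted p = 0.382). *Arntl* was at 10.9 to 11.8 FPKM in WT and 8.40 to 8.78 FPKM in *HrasG12V* mice, and its unadjusted limma p was up to 0.0893 with a WT mouse left out. *Npas2* (log2 fold change -0.80, standard error 0.26) lost its call without WT mouse 2280 or 2281 or *HrasG12V* mouse 2279, with an unadjusted limma p up to 0.0711. After scaling all libraries to 1 total, the calls of *Arntl*, *Npas2* and *Me1* were lost, with an unadjusted limma p of 0.198, 0.118 and 0.0812. With array weights that of *Dbp* was lost, with an unadjusted limma p of 0.0799. These genes change with the hour, and the part of the hour of collection in the level of *Pdk4* was not tested.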
